A study of Mus musculus with 16 samples.

Results

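The 10 genes S100a4, S100a6, S100a10, S100a11, Anxa1, Anxa2, Anxa5, Lgals1, Lgals3 and Ahnak, out of 32285 genes counted, were followed through cultured mouse bone marrow cells of 4 genotypes. They were taken by name: 4 members of the S100 family, 3 annexins, 2 galectins and the giant scaffold protein gene Ahnak. Marrow stromal cells of adult mice (age 12 weeks) were grown for 21 days in osteogenic medium with 10 mM β-glycerophosphate, a phosphate donor, and ascorbic acid, and single cells were read by droplet 3′ RNA-seq. Every genotype carried the floxed Fgf23 allele (Fgf23 fl/fl). WT mice were Dmp1+/+ without Cre, and Fgf23cKO mice were Dmp1+/+ with the Dmp1-cre transgene, whose Dmp1 promoter drives recombination in mature osteoblasts and osteocytes and removes the first exon of Fgf23. Dmp1KO mice were Dmp1-/- without Cre, and Dmp1KO/Fgf23cKO mice were Dmp1-/- with Dmp1-cre. Each genotype was a pool of cultures that had been marked by oligonucleotide tags and run in a single droplet reaction, and a difference between genotypes cannot be told apart from one between reactions.

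S100 proteins are small EF-hand proteins that change shape on binding calcium and then engage target proteins. Annexins bind acidic phospholipids in a calcium-dependent way. S100a10 with Anxa2 forms a membrane-bound heterotetramer that docks plasminogen, and S100a11 is a partner of Anxa1; Ahnak binds the S100a10-Anxa2 complex at the plasma membrane. Galectins bind β-galactoside sugars, and Lgals3 is a well-known product of activated macrophages. In connective tissue S100a4 and S100a6 mark motile and fibroblast-like cells, and Anxa2 and Anxa5 are found in the matrix vesicles that start mineral deposition in bone.

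In GRCm38 with GENCODE M21 annotation, all 10 are protein-coding genes. S100a4 (chr3:90603771-90606045) and S100a6 (chr3:90612882-90624181) lie close together with S100a5 between them, their annotated starts 9.1 kb apart, and S100a11 (chr3:93520488-93526287) and S100a10 (chr3:93555080-93564643) form a second pair with starts 34.6 kb apart on the same chromosome. The other genes lie elsewhere: Anxa5 at chr3:36448923-36475894, Anxa2 at chr9:69453620-69491795, Anxa1 at chr19:20373428-20390944, Ahnak at chr19:8989284-9076914, Lgals1 at chr15:78926725-78930465 and Lgals3 at chr14:47367751-47386160. RefSeq promoter windows (GRCm38.p6, 250 bases before to 50 after the start of transcription) were matched by symbol for 8 of the 10. The windows of S100a11 and Anxa2 are shown because both hold the AP-1 motif, and those of Anxa1 and Lgals3 because these genes had the largest fold changes of the 10 in Dmp1KO when 8 clusters grouped by macrophage markers were summed. The RefSeq start used for Lgals3 lies downstream of the start of its annotated GENCODE gene. Capitals mark matches, searched on both strands, to the AP-1 motif TGANTCA. They also mark the TATA box, searched as TATAAA, and no match of one motif overlaps one of the other.

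S100a11, chr3:93520246-93520545, plus strand: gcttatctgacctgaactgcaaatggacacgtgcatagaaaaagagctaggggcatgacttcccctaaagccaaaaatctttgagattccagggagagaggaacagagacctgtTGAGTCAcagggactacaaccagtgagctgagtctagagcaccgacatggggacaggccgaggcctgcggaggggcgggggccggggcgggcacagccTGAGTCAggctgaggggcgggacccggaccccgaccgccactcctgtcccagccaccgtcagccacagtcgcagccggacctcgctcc
Anxa2, chr9:69453433-69453732, plus strand: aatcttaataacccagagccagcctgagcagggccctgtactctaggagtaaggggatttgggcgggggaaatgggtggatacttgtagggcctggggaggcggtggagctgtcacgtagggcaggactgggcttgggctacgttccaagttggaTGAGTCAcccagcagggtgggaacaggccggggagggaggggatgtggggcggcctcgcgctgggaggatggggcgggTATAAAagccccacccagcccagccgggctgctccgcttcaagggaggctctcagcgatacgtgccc
Anxa1, chr19:20390622-20390921, minus strand: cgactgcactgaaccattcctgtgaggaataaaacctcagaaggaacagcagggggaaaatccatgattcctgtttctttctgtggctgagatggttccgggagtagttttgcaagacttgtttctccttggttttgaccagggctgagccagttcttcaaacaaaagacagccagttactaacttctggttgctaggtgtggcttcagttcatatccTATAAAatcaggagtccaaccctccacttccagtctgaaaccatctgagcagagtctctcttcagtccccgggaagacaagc
Lgals3, chr14:47373610-47373909, plus strand: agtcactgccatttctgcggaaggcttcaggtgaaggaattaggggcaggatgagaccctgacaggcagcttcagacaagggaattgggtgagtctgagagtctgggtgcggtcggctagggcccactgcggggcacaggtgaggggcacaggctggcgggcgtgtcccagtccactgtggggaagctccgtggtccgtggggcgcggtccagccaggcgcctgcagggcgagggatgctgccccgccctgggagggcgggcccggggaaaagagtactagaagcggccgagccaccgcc

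TGANTCA was present in 2 of the 8 member windows and in 7.81% of all 32851 promoter windows of this length. TATAAA was present in 3 member windows (S100a4, Anxa1 and Anxa2) and in 13.6% of all windows. The GC box GGGCGG was present in 4 member windows (S100a11, Anxa2, Lgals3 and Ahnak) and in 35.7% of all windows. A match describes letters only.

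Counts were used for 15 of 16 samples and 17793 cells. Dmp1KO replicate 1 was not analysed here, which leaves 2 tagged Dmp1KO cultures beside 3 of each other genotype. The replicate 4 samples of each genotype held cells with no clear tag (3216 cells) and entered only as an alternative. Among tagged cultures the median UMI count per cell ran from 7137 to 7276 in WT, 29753 to 34988 in Fgf23cKO, 20017 to 22186 in Dmp1KO and 32378 to 33881 in Dmp1KO/Fgf23cKO. The samples shared 35 cell barcodes, none of them within a genotype. The labels do not say whether tagged cultures came from separate mice, so p-values measure only the spread between cultures. Dmp1, the targeted gene, gave 457, 442 and 1770 UMIs in the WT cultures, 934, 1177 and 152 in Fgf23cKO, 0 and 3 in Dmp1KO replicates 2 and 3, and 76, 47 and 26 in Dmp1KO/Fgf23cKO. Within osteoblast/osteocyte-like cells it stood at 705, 785 and 1259 CPM (UMIs of the gene per 1000000 UMIs) in WT and 38.4, 15.3 and 25.4 in Dmp1KO/Fgf23cKO. Fgf23 gave 0 to 8 UMIs per sample, too few to check its deletion.

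Cells were clustered without the 10 genes or their families and named from marker genes. Contractile osteoprogenitor-like cells (797 cells, 413 of them tagged) were led by Tagln, Tpm2 and Acta2, fibroblastic pre-osteoblast-like cells (410, 295 tagged) by Col3a1, Tnc and Col12a1, and osteoblast/osteocyte-like cells (546, 222 tagged) by Ibsp, Bglap and Dmp1. Macrophage-like cells (7744, 6858 tagged) and osteoclast-like cells (178, 145 tagged; Acp5, Ctsk) made up the myeloid side. The median UMI count was 2577 in the contractile cluster and 52774 in the fibroblastic one, so contractile sums hold far fewer molecules. The osteoblast/osteocyte-like class joined cluster 13 (393 cells, median 1060 UMIs) and cluster 16 (153 cells, median 60976 UMIs). A cell of cluster 16 thus weighs far more in its sums, and Dmp1 was a leading gene of cluster 13 only. Counts were summed per culture and class, and levels below are CPM of that sum. Levels were compared within a gene and not between genes. In sums of this kind, fewer cells that express a gene and less RNA per cell cannot be told apart.

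By class, 9 of the 10 had their highest or second highest median level over cultures in contractile osteoprogenitor-like cells, where S100a6, a calcium sensor of proliferating fibroblasts, ran from 5469 to 16731 CPM. Its level fell in order to 3135 to 7766 CPM in fibroblastic pre-osteoblast-like, 540.1 to 1312 CPM in osteoblast/osteocyte-like and 175 to 780.5 CPM in macrophage-like cells, the last 2 ranges overlapping. S100a11 followed the same order with medians of 2954, 1461, 535 and 143 CPM, and Lgals1, a galectin of mesenchymal cells, with 6347, 2657, 1910.3 and 1051 CPM. Every stromal culture was above every macrophage-like culture for S100a11, and for Lgals1 every contractile and fibroblastic culture was.

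S100a10 and Anxa2, the 2 subunits of the heterotetramer, had medians of 1063 and 955 CPM in contractile, 571 and 725 CPM in fibroblastic, 296 and 386 CPM in osteoblast/osteocyte-like and 175 and 165 CPM in macrophage-like cells. Ahnak had medians of 1312, 1139, 293 and 429 CPM in the same order, so it was lowest in osteoblast/osteocyte-like cells. Anxa5 varied least between classes, its medians lying between 329 and 614 CPM. Lgals3 ran from 1089 to 3842 CPM in macrophage-like, 377 to 4034 CPM in contractile, 326 to 1630.1 CPM in fibroblastic and 139 to 584 CPM in osteoblast/osteocyte-like cells, so its macrophage-like range overlapped the contractile and fibroblastic ones and lay above the osteoblast/osteocyte-like one. In osteoclast-like cells, of which only the 3 WT cultures held 10 or more, S100a4 reached 3140.3, 3627 and 3593 CPM and S100a10 1121, 1301 and 1088 CPM, against 213 to 232 and 153 to 179.6 CPM in the macrophage-like cells of those cultures. These are levels of named classes and were not tested.

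**Figure D1:**
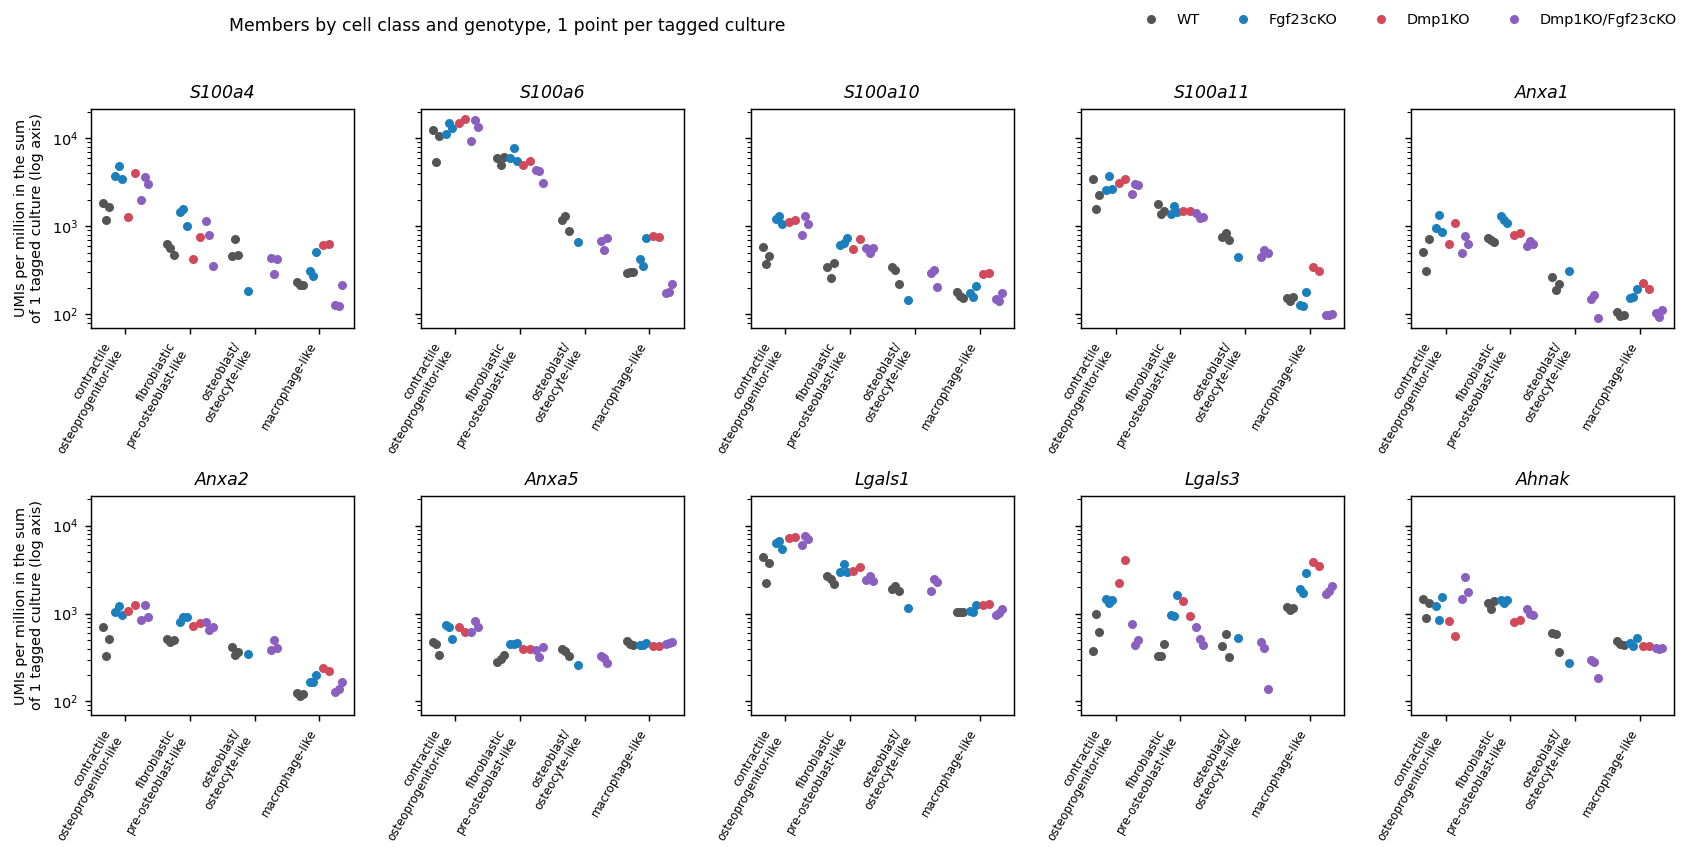
Level of each gene in CPM on a log axis, 1 point per tagged culture with at least 10 cells of the class, coloured by genotype. S100a6 declines from 5469 to 16731 in contractile osteoprogenitor-like to 175 to 780.5 in macrophage-like cells, while the Dmp1KO points of Lgals3 in macrophage-like cells (3842 and 3480.4) lie above those of every other genotype.

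In contractile osteoprogenitor-like cells, most of the genes were higher in each mutant than in WT. At an adjusted p under 0.1, 7 of the 10 rose in Dmp1KO, against 11.2% of all genes tested called either way (8.29% higher and 2.92% lower). Likewise 7 rose in Fgf23cKO (background 20.5%, with 11.3% higher and 9.2% lower) and 7 in Dmp1KO/Fgf23cKO (background 22.2%, with 13.1% higher and 9.04% lower), and none fell. The median log2 fold change of the 10 was 1.21, 1.31 and 1.25 in the 3 comparisons, beside -0.15, -0.09 and -0.18 over all genes. The 3 comparisons share the WT cultures. S100a10, Anxa2, Anxa5 and Lgals1 were called in all of them.

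S100a10, the plasminogen-docking subunit, was measured at 581, 377 and 456 CPM in WT, 1207, 1303 and 1063 in Fgf23cKO, 1110.5 and 1179.7 in Dmp1KO, and 793, 1302 and 1058 in Dmp1KO/Fgf23cKO. Every mutant culture was above every WT culture, and the log2 fold changes over WT were 1.70 ± 0.31 (adjusted p = 0.00659) in Dmp1KO, 1.73 ± 0.29 (adjusted p = 0.00396) in Fgf23cKO and 1.70 ± 0.28 (adjusted p = 0.00192) in Dmp1KO/Fgf23cKO (edgeR estimate ± SE here and below). Its partner Anxa2 was at 703, 329 and 516 CPM in WT, 1046, 1211 and 955 in Fgf23cKO, 1058 and 1241 in Dmp1KO, and 852, 1250.0 and 914 in Dmp1KO/Fgf23cKO. The groups again did not overlap, with log2 fold changes of 1.58 ± 0.34 (adjusted p = 0.0147), 1.44 ± 0.31 (adjusted p = 0.0135) and 1.49 ± 0.31 (adjusted p = 0.00672). Lgals1 stood at 4411, 2244 and 3802 CPM in WT, 6347, 6637 and 5451 in Fgf23cKO, 7208 and 7514 in Dmp1KO, and 5973, 7536 and 6980.0 in Dmp1KO/Fgf23cKO, which gave 1.48 ± 0.30 (adjusted p = 0.0126), 1.19 ± 0.28 (adjusted p = 0.0177) and 1.49 ± 0.28 (adjusted p = 0.00348). Anxa5, which binds phosphatidylserine, was at 469, 449 and 341 CPM in WT, 740.2, 705 and 509 in Fgf23cKO, 696 and 614 in Dmp1KO, and 614, 814 and 699 in Dmp1KO/Fgf23cKO, with log2 fold changes of 1.06, 1.04 and 1.30. All 3 were called, and all mutant cultures again exceeded WT. The genes of this paragraph were picked by the test on the same cultures, so their separation adds no support.

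The remaining S100 genes were less even. S100a4, at 1823, 1173 and 1652 CPM in WT, 3736, 4874 and 3428 in Fgf23cKO, 1290.1 and 4055 in Dmp1KO, and 2015, 3632 and 3069 in Dmp1KO/Fgf23cKO, rose in Fgf23cKO by 1.76 ± 0.41 (adjusted p = 0.0184) and in Dmp1KO/Fgf23cKO by 1.44 ± 0.41 (adjusted p = 0.0303), but 1 of its 2 Dmp1KO cultures lay inside the WT range and the other above it, and the difference of 1.24 ± 0.44 (adjusted p = 0.109) was not called. S100a6 rose in Dmp1KO (1.14 ± 0.36, adjusted p = 0.078) and Dmp1KO/Fgf23cKO (0.98 ± 0.33, adjusted p = 0.0613), the CPM of both Dmp1KO cultures (14969 and 16731) lying above the WT range of 5469 to 12417 and that of Dmp1KO/Fgf23cKO (9334 to 16379) overlapping it. Neither S100a6 call held when only contractile cells with under 1% of UMIs from the macrophage list were summed, the values being 0.40 (adjusted p = 0.218) and 0.28 (adjusted p = 0.266), or with library totals in place of TMM factors, at 0.68 (adjusted p = 0.166) and 0.38 (adjusted p = 0.282). S100a11, the Anxa1 partner, was called in none, with values of 0.83, 0.66 and 0.70. Anxa1 rose in Dmp1KO by 1.17 ± 0.39 (adjusted p = 0.0933) and in Fgf23cKO by 1.42 ± 0.36 (adjusted p = 0.0273), and the Dmp1KO/Fgf23cKO value of 0.85 ± 0.36 (adjusted p = 0.122) was not called.

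Lgals3 and Ahnak separated the 2 Dmp1-deficient genotypes. Lgals3 was at 377, 981 and 621 CPM in WT, 1480.3, 1326 and 1426 in Fgf23cKO, 2205 and 4034 in Dmp1KO, and 752, 444 and 505 in Dmp1KO/Fgf23cKO. It was 2.70 ± 0.36 (adjusted p = 0.00348) above WT in Dmp1KO and 1.51 ± 0.33 (adjusted p = 0.0135) above WT in Fgf23cKO, while Dmp1KO/Fgf23cKO differed from WT by 0.31 ± 0.32 (adjusted p = 0.522). Directly compared, Dmp1KO/Fgf23cKO was lower than Dmp1KO (log2 fold change -2.39 ± 0.35, adjusted p = 0.0133), and these groups did not overlap, whereas Dmp1KO/Fgf23cKO overlapped WT. In cells low in macrophage UMIs Lgals3 was instead higher than WT in Dmp1KO/Fgf23cKO too, by 1.43 (adjusted p = 0.0285), with 3.47 (adjusted p = 4.93e-04) in Dmp1KO and -2.04 (adjusted p = 0.0141) between them. Ahnak, at 1446, 897 and 1312 CPM in WT, 1207, 843 and 1526 in Fgf23cKO, 817 and 550.1 in Dmp1KO, and 1454, 2632 and 1735 in Dmp1KO/Fgf23cKO, was higher in Dmp1KO/Fgf23cKO than in Dmp1KO by 1.65 ± 0.37 (adjusted p = 0.06) and than in WT by 1.20 ± 0.32 (adjusted p = 0.0235). These were the 2 called genes of the 10 in that comparison, against 1.25% of all genes (0.731% higher and 0.519% lower).

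Summed CPM of the 10 macrophage markers in these contractile sums was 5603 to 20146 in WT, 1809 to 8879 in Fgf23cKO, 4725 to 10863 in Dmp1KO and 2601 to 7823 in Dmp1KO/Fgf23cKO, with 0 to 2 of the 10 markers at 0 in a sum. Lgals3 itself reached 10894 to 12154 CPM in the Dmp1KO sums of the 8 clusters grouped by macrophage markers. The 10 dissociation-stress genes summed to 285 to 1227 CPM in WT and 123 to 185, 300.0 to 461 and 79.5 to 310.0 CPM in the mutants, in the order Fgf23cKO, Dmp1KO and Dmp1KO/Fgf23cKO. Fibroblastic markers summed to 2004 to 2844 CPM in WT, 1147 to 2721 in Fgf23cKO, 660 to 673 in Dmp1KO and 1191 to 1617 in Dmp1KO/Fgf23cKO, with 0 to 3 of the 9 at 0, and osteoblast/osteocyte markers to 838 to 4176, 2567 to 4864, 1127 to 1339 and 4320.2 to 5971 CPM, with 2 to 4 of the 10 at 0. Both lists were thus lower in Dmp1KO than in Dmp1KO/Fgf23cKO, as Ahnak was; the part of the stress, fibroblastic and osteoblast/osteocyte lists in the results was not tested. When only contractile cells low in macrophage UMIs were summed, 6, 7 and 7 of the 10 genes rose against WT in Dmp1KO, Fgf23cKO and Dmp1KO/Fgf23cKO, and Ahnak fell in Dmp1KO by 0.79 on the log2 scale (adjusted p = 0.0801). Over all genes, 585 were called there in Fgf23cKO, against 1066 in the main fit. The counts over all genes in Dmp1KO and Dmp1KO/Fgf23cKO stayed within 1.5 times the main ones. In sums of macrophage-like cells the 10 macrophage markers stood at 35708 to 37123 CPM in WT and 42464 to 43177 CPM in Fgf23cKO. Cells under the limit of 1% can therefore still hold macrophage RNA. Library scaling mattered: TMM factors were 1.20 to 1.38 in WT and 0.79 to 1.00 in the mutants, and with library totals alone the median gene shifted to -0.63, -0.55 and -0.76 while 4, 7 and 5 genes still rose, the calls lost being S100a6, Anxa1 and Anxa5 in Dmp1KO and S100a6 and Ahnak in Dmp1KO/Fgf23cKO. Over all genes, library totals called 2035 in Dmp1KO/Fgf23cKO against WT, and the main fit 1152. Without Dmp1KO replicate 3 the count in Dmp1KO fell from 7 to 1 and none of the 10 differed between Dmp1KO/Fgf23cKO and Dmp1KO, and without Dmp1KO/Fgf23cKO replicate 2 the count in Dmp1KO/Fgf23cKO fell from 7 to 4.

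**Figure D2:**
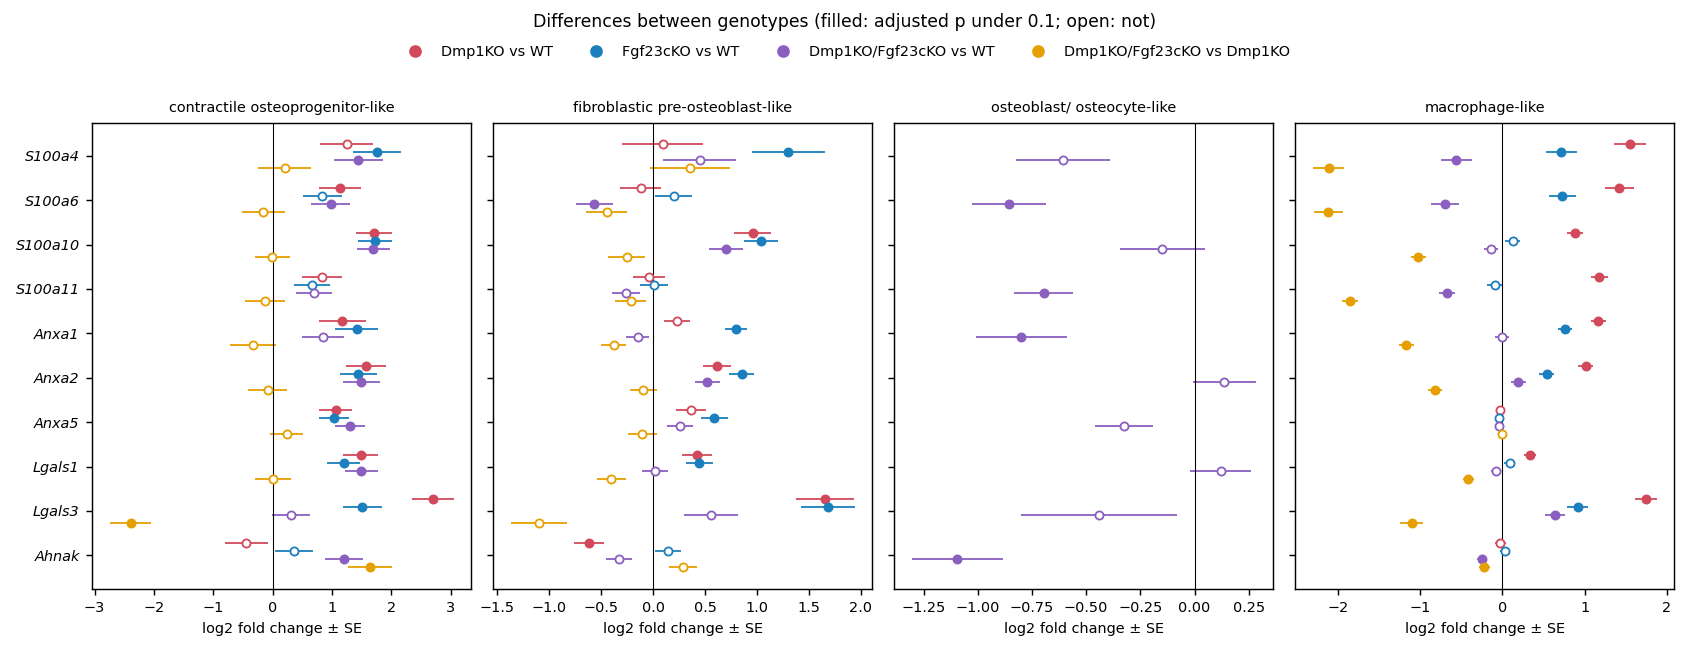
Log2 fold change ± SE of each gene in each comparison, 1 panel per cell class; filled points passed an adjusted p of 0.1. The horizontal scale differs between panels. In contractile osteoprogenitor-like cells the points against WT lie mostly right of 0, and in macrophage-like cells 9 of the 10 Dmp1KO/Fgf23cKO vs Dmp1KO points lie left of 0 and are filled.

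In fibroblastic pre-osteoblast-like cells the widest rise was in Fgf23cKO, where 7 of the 10 were higher and none lower (background 12%, with 6.08% higher and 5.88% lower). In Dmp1KO 4 were higher and Ahnak was lower (background 11.8%, with 5.87% higher and 5.96% lower), and in Dmp1KO/Fgf23cKO 2 were higher and S100a6 lower (background 14.9%, with 7.3% higher and 7.63% lower). The median log2 fold change of the 10 was 0.69, 0.30 and 0.14 in those comparisons, against -0.00, -0.00 and 0.02 over all genes. S100a10 and Anxa2 were the genes raised in all 3. The sums rested on 36, 18 and 38 cells in WT, 19, 14 and 14 in Fgf23cKO, 33 and 43 in Dmp1KO, and 28, 30 and 22 in Dmp1KO/Fgf23cKO. The 9 fibroblastic markers themselves summed to 7579 to 8499 CPM in WT and 4149 to 5025 CPM in Fgf23cKO. They stood at 5613 to 6314 CPM in Dmp1KO and 6190 to 6530 CPM in Dmp1KO/Fgf23cKO, so every mutant was below WT. The part of this list in the results was not tested.

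S100a10 measured 343, 260.2 and 380.1 CPM in WT, 612, 645 and 745 in Fgf23cKO, 556 and 715 in Dmp1KO, and 571, 494 and 571 in Dmp1KO/Fgf23cKO, and all mutant cultures exceeded WT, with log2 fold changes of 0.96 ± 0.18 (adjusted p = 0.0092), 1.04 ± 0.17 (adjusted p = 0.0042) and 0.70 ± 0.16 (adjusted p = 0.0212) in Dmp1KO, Fgf23cKO and Dmp1KO/Fgf23cKO. Anxa2 was at 509.6, 476 and 503 CPM in WT, 799, 924 and 907 in Fgf23cKO, 725 and 779.8 in Dmp1KO, and 794, 656 and 710.4 in Dmp1KO/Fgf23cKO, with log2 fold changes of 0.62 ± 0.13 (adjusted p = 0.017), 0.85 ± 0.12 (adjusted p = 0.00229) and 0.52 ± 0.12 (adjusted p = 0.0195). Both subunits therefore had non-overlapping WT and mutant cultures, which adds no support beyond the calls. Anxa1, an inhibitor of inflammation, was at 735, 704 and 666 CPM in WT, 1296, 1191 and 1080.0 in Fgf23cKO, 793 and 831 in Dmp1KO, and 600.2, 678 and 636 in Dmp1KO/Fgf23cKO. It was called in Fgf23cKO (0.80 ± 0.11, adjusted p = 0.00194), where all cultures exceeded WT, and in neither other mutant, the Dmp1KO value being 0.23 ± 0.12 (adjusted p = 0.289) and the Dmp1KO/Fgf23cKO value -0.15 ± 0.11 (adjusted p = 0.439). Lgals3 stood at 329, 326 and 453 CPM in WT, 958, 927 and 1630.1 in Fgf23cKO, 1385 and 935 in Dmp1KO, and 699, 518 and 443 in Dmp1KO/Fgf23cKO, higher in Dmp1KO by 1.65 ± 0.28 (adjusted p = 0.00605) and in Fgf23cKO by 1.68 ± 0.26 (adjusted p = 0.00385), and in Dmp1KO/Fgf23cKO by 0.56 ± 0.26 (adjusted p = 0.205), which was not called. S100a4 was called in Fgf23cKO (1.30 ± 0.35, adjusted p = 0.0473), where it ran from 1010.5 to 1564 CPM against 478 to 636 CPM in WT.

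Ahnak, at 1325, 1133 and 1396 CPM in WT, 1423, 1319 and 1421 in Fgf23cKO, 806 and 853 in Dmp1KO, and 1139, 997 and 969 in Dmp1KO/Fgf23cKO, fell in Dmp1KO (log2 fold change -0.62 ± 0.14, adjusted p = 0.022). Both Dmp1KO cultures lay under all 3 WT cultures. Lgals1 was called in Dmp1KO (0.42 ± 0.14, adjusted p = 0.0964) and Fgf23cKO (0.45 ± 0.13, adjusted p = 0.0576), close to the threshold in both, and Anxa5 in Fgf23cKO (0.59 ± 0.13, adjusted p = 0.0197). S100a6 was lower in Dmp1KO/Fgf23cKO (-0.56 ± 0.18, adjusted p = 0.0658), at 3135 to 4359.5 CPM against 5001 to 6209 CPM in WT. S100a11 was called in none. Between Dmp1KO/Fgf23cKO and Dmp1KO none of the 10 was called by edgeR (background 0.971%, with 0.524% higher and 0.447% lower), 4 of them having an unadjusted p under 0.05. In that comparison DESeq2 called 2 (background 1.14%), and edgeR called 1 with no filter on low counts and 3 with untagged samples as replicates. Over all genes, edgeR called 944 with no filter and 827 with untagged samples, against 113 in the main fit. Macrophage markers summed to 939 to 2825 CPM in WT, 1765 to 4881 in Fgf23cKO, 2218 to 3024 in Dmp1KO and 1819.7 to 2705 in Dmp1KO/Fgf23cKO. Restricted to cells with under 1% of such UMIs, 7 genes still rose in Fgf23cKO and 3 in Dmp1KO. The counts over all genes in that restricted fit stayed within 1.5 times the main ones. Without Dmp1KO replicate 3 the Dmp1KO count fell from 5 to 1, and without replicate 2 to 3.

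Mature osteoblast/osteocyte-like cells could be compared only between WT and Dmp1KO/Fgf23cKO, because the Dmp1KO cultures held 2 and 6 such cells and the Fgf23cKO cultures 18, 9 and 5. Here 4 of the 10 fell and none rose, against 15.2% of all genes called (7.48% higher and 7.67% lower), and the median log2 fold change of the 10 was -0.52 against 0.01 over all genes. Ahnak was at 596, 588 and 369.9 CPM in WT and 293, 279 and 183 CPM in Dmp1KO/Fgf23cKO, a log2 difference of -1.09 ± 0.21 (adjusted p = 0.0112). S100a6 was at 1180.1, 1312 and 892 and 684, 540.1 and 739 CPM (-0.86 ± 0.17, adjusted p = 0.0133), and S100a11 at 761, 833 and 692 and 444, 535 and 503 CPM (-0.70 ± 0.14, adjusted p = 0.0121). Anxa1, at 267, 188 and 224 against 150.4, 164 and 91.1 CPM, differed by -0.80 ± 0.21 (adjusted p = 0.0387). These 4 genes were picked by the test on the same cultures, so the lack of overlap between their groups adds no support. In contractile cells the same genotypes differed by 1.20 ± 0.32 (adjusted p = 0.0235) for Ahnak and 0.98 ± 0.33 (adjusted p = 0.0613) for S100a6, in the opposite direction. Both contractile calls were lost with library totals, at 0.60 (adjusted p = 0.127) and 0.38 (adjusted p = 0.282). In contractile cells low in macrophage UMIs, Ahnak was still called (0.88, adjusted p = 0.0168) and S100a6 was not (0.28, adjusted p = 0.266). The difference between classes was not tested. Macrophage markers summed to 3189.7 to 6301 CPM in WT and 1885 to 5564 CPM in Dmp1KO/Fgf23cKO sums of this class. The 10 osteoblast/osteocyte markers, Dmp1 among them, summed to 87930 to 118208 CPM in WT and 84569 to 89397 CPM in Dmp1KO/Fgf23cKO. These sums rested on 34, 28 and 57 WT cells and 18, 33 and 12 Dmp1KO/Fgf23cKO cells, mixed from a shallow and a deep cluster. The part of this mixture in the results was not tested.

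In macrophage-like cells the 10 genes split by genotype in both directions. In Dmp1KO 8 rose and none fell (background 59.3%, with 30.1% higher and 29.2% lower). In Fgf23cKO 5 rose (background 49.4%, with 25.6% higher and 23.8% lower), and in Dmp1KO/Fgf23cKO 2 rose and 4 fell against WT (background 57.3%, with 28.5% higher and 28.7% lower). Against Dmp1KO, 9 of the 10 were lower in Dmp1KO/Fgf23cKO (background 43.9%, with 20.5% higher and 23.3% lower). In these large sums, 43.9% to 59.3% of all genes were called in the 4 comparisons, so the counts of 5 and 6 genes are near the background.

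S100a4, a marker of motile monocytes, stood at 232, 213 and 214 CPM in WT, 313, 275 and 509 in Fgf23cKO, 608 and 627 in Dmp1KO, and 129, 126 and 214 in Dmp1KO/Fgf23cKO. Both Dmp1KO cultures were above all other cultures, by 1.56 ± 0.20 (adjusted p = 1.93e-06) over WT, and Dmp1KO/Fgf23cKO was -2.12 ± 0.19 (adjusted p = 5.97e-08) relative to Dmp1KO and -0.56 ± 0.19 (adjusted p = 0.0164) relative to WT. S100a6, at 293, 305 and 303 CPM in WT, 426, 357 and 729.8 in Fgf23cKO, 780.5 and 762 in Dmp1KO, and 175, 181 and 223 in Dmp1KO/Fgf23cKO, gave 1.42 ± 0.18 (adjusted p = 1.67e-06), -2.12 ± 0.18 (adjusted p = 1.57e-08) and -0.70 ± 0.17 (adjusted p = 0.00165) in the same 3 comparisons. S100a11 was at 153, 143 and 159 CPM in WT, 129, 124 and 179.9 in Fgf23cKO, 347 and 311 in Dmp1KO, and 98.2, 98.6 and 99.7 in Dmp1KO/Fgf23cKO, with 1.18 ± 0.10 (adjusted p = 1.28e-08), -1.85 ± 0.10 (adjusted p = 4.24e-11) and -0.67 ± 0.10 (adjusted p = 1.09e-05). For S100a11 all Dmp1KO/Fgf23cKO cultures lay below WT and all Dmp1KO cultures above it. In Fgf23cKO the third culture was the highest for each of these genes. S100a10 rose in Dmp1KO (0.88 ± 0.09, adjusted p = 2.10e-07) and was called in neither other mutant against WT.

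Anxa1 measured 105, 94.7 and 97.2 CPM in WT, 154, 157 and 196 in Fgf23cKO, 228 and 196 in Dmp1KO, and 103, 93.8 and 111 in Dmp1KO/Fgf23cKO. It rose in Dmp1KO by 1.17 ± 0.09 (adjusted p = 3.99e-09) and in Fgf23cKO by 0.76 ± 0.09 (adjusted p = 1.23e-06), and the Dmp1KO/Fgf23cKO cultures overlapped WT (-0.00 ± 0.09, adjusted p = 0.978). Anxa2 gave 1.01 ± 0.09 (adjusted p = 2.82e-08), 0.54 ± 0.09 (adjusted p = 6.58e-05) and 0.19 ± 0.09 (adjusted p = 0.0678) against WT in Dmp1KO, Fgf23cKO and Dmp1KO/Fgf23cKO. Anxa5 was called in none of the comparisons and ran from 427 to 484 CPM over all 11 cultures. Lgals3, whose product is secreted by activated macrophages, stood at 1172, 1089 and 1157 CPM in WT, 1913, 1712 and 2898 in Fgf23cKO, 3842 and 3480.4 in Dmp1KO, and 1689, 1789 and 2060.3 in Dmp1KO/Fgf23cKO. All mutant cultures were above WT, by 1.75 ± 0.14 (adjusted p = 3.73e-09) in Dmp1KO, 0.91 ± 0.13 (adjusted p = 9.72e-06) in Fgf23cKO and 0.64 ± 0.13 (adjusted p = 2.97e-04) in Dmp1KO/Fgf23cKO. Lgals1 rose in Dmp1KO by 0.34 ± 0.07 (adjusted p = 5.26e-04). Ahnak was lower in Dmp1KO/Fgf23cKO than in WT (-0.25 ± 0.06, adjusted p = 0.00178), and its difference from Dmp1KO (-0.22 ± 0.07, adjusted p = 0.0117) was lost with library totals alone (-0.10, adjusted p = 0.234).

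Markers of other cells were measured in the same macrophage-like sums. The 9 contractile markers summed to 75.8 to 90.3 CPM in WT, 89 to 94.2 in Fgf23cKO, 101 to 108 in Dmp1KO and 84.3 to 93.6 in Dmp1KO/Fgf23cKO, with none at 0. The 7 osteoclast markers summed to 297 to 375 CPM in Dmp1KO against 136 to 144 in WT, 108 to 128 in Fgf23cKO and 79.8 to 92.8 in Dmp1KO/Fgf23cKO, with 1 or 2 at 0. The 10 osteoblast/osteocyte markers moved the other way, summing to 25.2 to 26.4 CPM in Dmp1KO against 115 to 134 in WT, 169 to 171 in Fgf23cKO and 234 to 238 in Dmp1KO/Fgf23cKO, with 1 to 3 at 0. The part of these lists in the S100 differences was not tested.

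Different clusters made up the macrophage-like class in the 4 genotypes. Cluster 0 (led by Marco and Maf) held 2970 of its 3105 cells from WT, whereas cluster 1 (Cd86, Cd83) held 63 WT cells among 2912 and cluster 4 (C1qa, Napsa) held 806 Dmp1KO cells among 1293. A further 3 clusters had at least 8 of the 10 macrophage markers detected and enough depth to be grouped with these, but the marker among their leading genes came from the osteoclast or adipocyte list, of which only 2 were detected, and they were kept out of the named class: cluster 2 (Mmp12, Atp6v0d2), cluster 3 (Itgax, Mmp12, Lpl) and cluster 9 (Fgf13, Lpl, Spp1). They took 42.8% to 51.6% of all cells in Dmp1KO, 9.6% to 12.5% in WT, 7.45% to 20.4% in Fgf23cKO and 7.09% to 9.58% in Dmp1KO/Fgf23cKO. Cycling-like clusters 5 and 11 (1009 and 563 cells) and the shallow clusters 7 and 10 (812 and 565 cells) also had 9 of the markers detected, and none of them entered either sum, nor did the smaller osteoclast-like and stromal clusters in which these markers were detected. With the 8 clusters summed, 9 of the 10 rose in Dmp1KO (background 69.6%, with 35.6% higher and 34% lower), and the log2 fold changes grew to 2.58 ± 0.21 (adjusted p = 6.79e-08) for Lgals3, 2.71 ± 0.15 (adjusted p = 2.01e-09) for Anxa1 and 1.96 ± 0.13 (adjusted p = 8.31e-09) for S100a11. Lgals3 in these sums was at 2632, 1932 and 2197 CPM in WT, 4399, 3777 and 7338 in Fgf23cKO, 12154 and 10894 in Dmp1KO, and 3365, 3538 and 3929 in Dmp1KO/Fgf23cKO. Anxa5 rose there by 0.51 ± 0.06 (adjusted p = 7.91e-06). Relative to Dmp1KO, 9 were again lower in Dmp1KO/Fgf23cKO (background 66.6%, with 29.5% higher and 37% lower). Against WT, 5 rose in Fgf23cKO (background 49.4%, with 25.4% higher and 24% lower), and 3 rose and 4 fell in Dmp1KO/Fgf23cKO (background 55.2%, with 27.2% higher and 28% lower). For 9, the change from Dmp1KO to Dmp1KO/Fgf23cKO was lower than that from WT to Fgf23cKO (background 62.5%, with 29.4% higher and 33.1% lower).

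Within Dmp1KO cultures the levels varied widely between these clusters. Lgals3 was at 2223 and 1936 CPM in cluster 1 of the 2 cultures, 4754 and 4958 in cluster 4, 7229 and 7198 in cluster 9, 15840.5 and 16042 in cluster 3 and 19284 and 18864 in cluster 2, of which it was itself a leading gene. Anxa1 was highest in cluster 3, at 1422 and 1408 CPM against 175 and 159 CPM in cluster 1, and S100a11 was at 1076 and 1133 against 177 and 186 CPM. The order of the clusters differed between genes. Within cluster 2, Lgals3 was at 9198, 7246 and 7959.8 CPM in the 3 WT cultures and 19284 and 18864 CPM in Dmp1KO, and within cluster 0 at 1134, 1076 and 1147 and 2056 and 2081 CPM. Cluster 0 held only 34 Dmp1KO cells in all, untagged ones included, against 2970 WT cells. Cluster 14, led by MHC class II genes (Cd74, H2-Aa), ran the other way for S100 genes: S100a4 was at 2433, 2401 and 2987 CPM in WT and 670.3 and 769 CPM in Dmp1KO, and S100a11 at 956, 845 and 1024 and 519.6 and 498 CPM. The WT sums of cluster 14 rest on 20, 30 and 27 cells. Since cells were clustered on these libraries, differences between clusters were not tested.

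**Figure D3:**
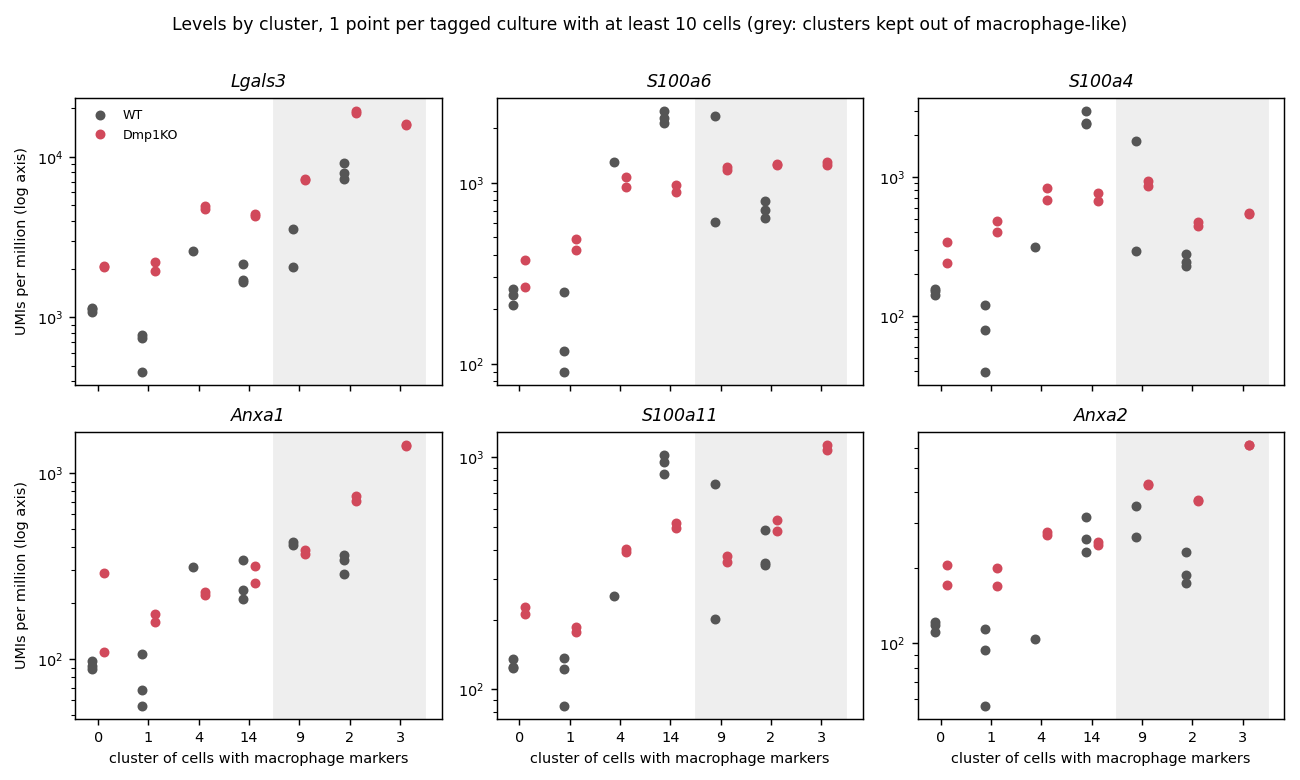
Level of 6 genes in CPM (log axis) in the clusters with macrophage markers, 1 point per WT or Dmp1KO culture with at least 10 cells; the grey area holds the 3 clusters kept out of the macrophage-like class. Lgals3 climbs to 19284 and 18864 in cluster 2 of Dmp1KO, and in cluster 14 the WT points of S100a4 lie above the Dmp1KO points.

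The change from the genotype without Cre to that with Cre was compared between the Dmp1 backgrounds. This contrast is the difference between Dmp1KO/Fgf23cKO minus Dmp1KO and Fgf23cKO minus WT. In macrophage-like cells 9 of the 10 were lower by this contrast (background 47.9%, with 22.5% higher and 25.3% lower), in fibroblastic pre-osteoblast-like cells 6 (background 6.2%, with 2.76% higher and 3.45% lower) and in contractile cells 2 (background 2.69%, with 0.462% higher and 2.23% lower), and none was higher. In contractile cells low in macrophage UMIs, Ahnak was higher by this contrast (1.78, adjusted p = 0.0322). The macrophage-like call of Ahnak was lost with library totals (-0.15, adjusted p = 0.212), and the fibroblastic call of Anxa5 in cells low in macrophage UMIs (-0.66, adjusted p = 0.108). Lgals3 was called in all 3 classes, at -2.02 ± 0.19 (adjusted p = 6.77e-08) in macrophage-like, -2.78 ± 0.38 (adjusted p = 0.00974) in fibroblastic and -3.90 ± 0.48 (adjusted p = 0.00568) in contractile cells. S100a10 was likewise called in all 3, at -1.15 ± 0.13 (adjusted p = 7.39e-07), -1.30 ± 0.24 (adjusted p = 0.0182) and -1.74 ± 0.41 (adjusted p = 0.0794). Its contractile value was not called under RLE scaling or without any 1 of 9 of the 11 cultures. The contractile and fibroblastic sums of Dmp1KO also held macrophage markers, at 4725 to 10863 and 2218 to 3024 CPM. In the Dmp1KO sums of the 8 clusters these stood at 27903 to 29131 CPM, and Lgals3 reached 12154 CPM. With cells low in macrophage UMIs the Lgals3 values were -4.62 (adjusted p = 0.00271) in contractile and -2.41 (adjusted p = 0.0203) in fibroblastic cells. The part of macrophage RNA in the stromal Lgals3 values was not tested. In macrophage-like cells, Lgals3 was higher in Fgf23cKO than in WT (0.91) and lower in Dmp1KO/Fgf23cKO than in Dmp1KO (-1.11). Without Dmp1KO replicate 3 the fibroblastic count fell from 6 to 2.

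Co-expression was measured across single cells of a culture after thinning each cell to 1300 UMIs, as Spearman correlations described by their median over cultures and with no test. The cells of a culture share a library, and no stromal class but the contractile one had cultures with 50 thinned cells (2 of them), so stromal medians rest on cultures with 20 or more: 8 contractile, 7 fibroblastic and 4 osteoblast/osteocyte-like. Of Fgf23cKO only replicate 3 entered the contractile medians, and no culture the other stromal ones. The osteoblast/osteocyte-like medians come from WT replicates 1, 2 and 3 and Dmp1KO/Fgf23cKO replicate 2. S100a6 and Lgals1 formed the tightest pair in contractile cells, with a median of 0.70 (range 0.63 to 0.80), followed by S100a4 with S100a6 at 0.61 (range 0.21 to 0.78) and S100a6 with S100a11 at 0.60 (range 0.52 to 0.74). Ahnak and Lgals3 stood outside this group, their correlation with the mean of the other 9 genes being -0.02 and -0.03, against 0.76 for S100a6 and 0.67 for Lgals1. S100a11 with Ahnak was at -0.27 (range -0.58 to 0.17). Over the 45 pairs of the 10 genes, the median per culture ran from 0.08 to 0.28 in contractile cells, beside -0.01 to 0.04 for all pairs of genes with a UMI in at least 20% of cells. All pairs were not matched to the 10 genes by level.

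In fibroblastic pre-osteoblast-like cells the same pair led, S100a6 with Lgals1 at 0.41 (range 0.15 to 0.86), and the median over pairs ran from 0.14 to 0.26 per culture against -0.01 to 0.00 for all pairs. Osteoblast/osteocyte-like cells had the loosest grouping among stromal classes, with S100a4 and S100a6 at 0.26 (range 0.19 to 0.35) and medians per culture from 0.00 to 0.10, beside 0.00 to 0.05 for all pairs; in 2 of the 4 cultures the median over the 10 genes was no higher than that over all pairs. In macrophage-like cells, over 11 cultures of 231 or more thinned cells, S100a4 and S100a6 gave 0.40 (range 0.31 to 0.51), and the next pair, S100a4 with Lgals1, 0.21 (range 0.07 to 0.25). The medians over pairs there, 0.05 to 0.10, are weak in sparse counts, in which 4 to 10 of the 10 genes had a UMI in at least 20% of thinned cells.

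The other genes whose level across cells was most like the mean of the 10 were, in contractile cells, Vim (0.62), Nme2 (0.60), Tmsb10 (0.60), Tagln (0.54) and Crip1 (0.54), out of 367 genes with a median of 0.19. In fibroblastic cells they were Vim (0.63), Timp3 (0.49), Timp1 (0.48), Crip1 (0.40) and Fn1 (0.38), out of 445 with a median of 0.061. In macrophage-like cells they were Vim (0.36), Crip1 (0.30), Ftl1 (0.27), Capg (0.25) and Rpl13 (0.24), out of 665 with a median of 0.00036. In osteoblast/osteocyte-like cells they were Rpl9 (0.44), Tmsb10 (0.43), Vim (0.42), Rps9 (0.42) and Rpl39 (0.39), out of 405 with a median of 0.11. Vim, the intermediate filament vimentin, was among the 5 in every class, and Crip1, a LIM-domain protein gene, in 3 of the 4. These lists depended on the depth. With cells thinned to 3000 UMIs, Vim was not among the 5 in osteoblast/osteocyte-like cells, and Crip1 was among them only in macrophage-like cells.

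**Figure D4:**
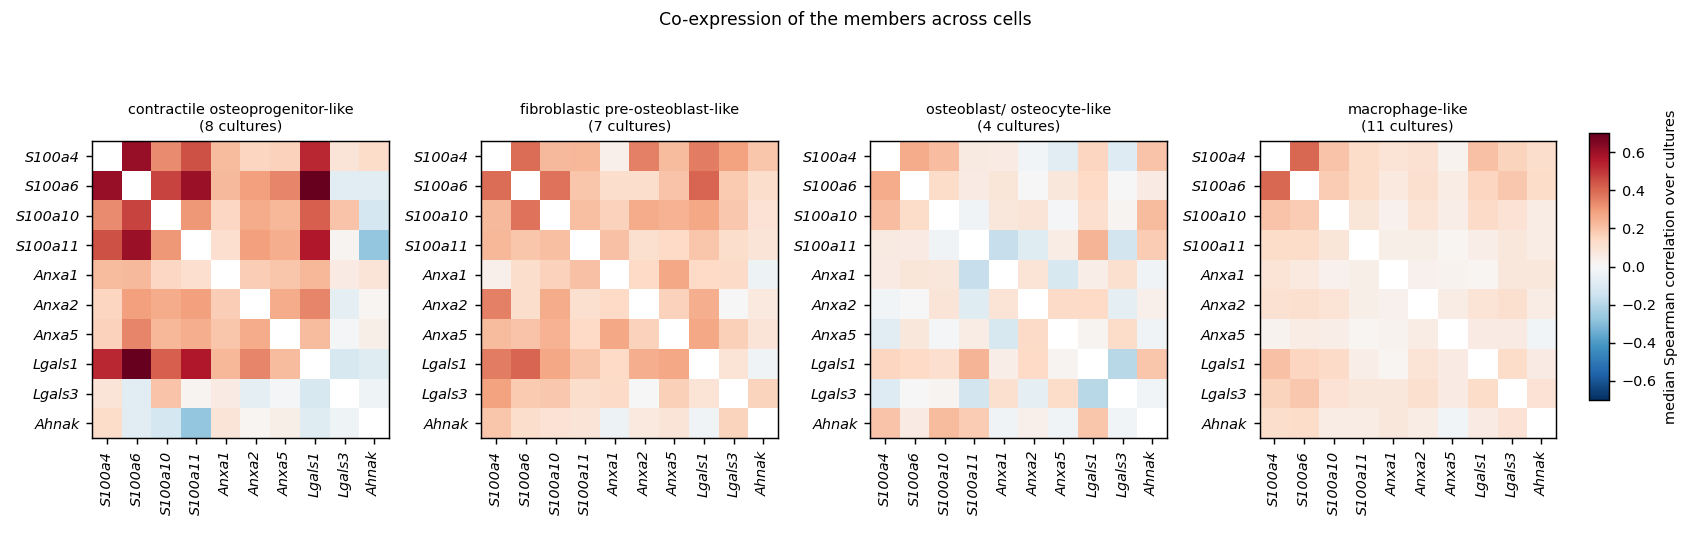
Median Spearman correlation over tagged cultures of each pair of genes across cells thinned to 1300 UMIs, 1 matrix per class on a colour scale from -0.7 (blue) to 0.7 (red). The S100 genes and Lgals1 form a red block in contractile osteoprogenitor-like cells (S100a6 with Lgals1 at 0.70) that is paler in macrophage-like cells, where S100a4 with S100a6 (0.40) is the deepest cell.

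The other family genes did not move as a body. Of 13 other genes with an S100 name (among them S100pbp, which encodes a binding protein and no S100), 4 could be tested in contractile cells, where S100b, an S100 protein of glia and cartilage, rose in Dmp1KO (1.45 ± 0.44, adjusted p = 0.0678) and Dmp1KO/Fgf23cKO (2.34 ± 0.41, adjusted p = 0.00251) and S100a13 rose in Fgf23cKO (1.14 ± 0.33, adjusted p = 0.0457) and Dmp1KO/Fgf23cKO (0.95 ± 0.33, adjusted p = 0.0707). In macrophage-like cells 6 were tested, of which 3 rose and 1 fell in Dmp1KO (59.3% of all genes were called there, with 30.1% higher and 29.2% lower), the fall being S100a1 (-0.41 ± 0.06, adjusted p = 1.38e-05). S100a1 fell there in all 3 mutants against WT. Of 9 other annexins, Anxa8 rose in fibroblastic cells of all 3 mutants, by 2.10 ± 0.32 (adjusted p = 0.00365) in Dmp1KO, 1.60 ± 0.31 (adjusted p = 0.0116) in Fgf23cKO and 1.70 ± 0.30 (adjusted p = 0.00573) in Dmp1KO/Fgf23cKO, out of 6 tested. Of 9 other genes with a galectin name, 3 of 5 tested fell in macrophage-like cells of each mutant and none rose (28.7% of all genes were lower in Dmp1KO/Fgf23cKO, 23.8% in Fgf23cKO and 29.2% in Dmp1KO). They were the galectin genes Lgals8 (-0.54 ± 0.06, adjusted p = 1.65e-07 in Dmp1KO) and Lgals9 (-0.43 ± 0.06, adjusted p = 4.37e-06), and Lgals3bp (-0.99 ± 0.07, adjusted p = 2.21e-09), whose product is a glycoprotein that binds galectins and is not one, while Lgals3 itself rose.

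Among 16 genes of membrane repair, plasminogen activation, annexin receptors and scaffolds, 3 of 10 tested rose in contractile cells of each mutant. None fell, and 8.29%, 11.3% and 13.1% of all genes were higher in Dmp1KO, Fgf23cKO and Dmp1KO/Fgf23cKO. The 3 were Vim, Capn2 and Capns1, the last 2 encoding subunits of the protease calpain. Vim gave 2.25 ± 0.36 (adjusted p = 0.00428), 2.30 ± 0.34 (adjusted p = 0.00209) and 2.53 ± 0.34 (adjusted p = 5.38e-04) in Dmp1KO, Fgf23cKO and Dmp1KO/Fgf23cKO. In fibroblastic cells 3, 5 and 4 of 14 rose in the same order (5.87%, 6.08% and 7.3% of all genes), among them Capn2 (0.63 ± 0.13, adjusted p = 0.0151, 1.08 ± 0.12, adjusted p = 8.20e-04 and 0.92 ± 0.12, adjusted p = 0.00106) and, in the Cre-carrying genotypes, the urokinase receptor gene Plaur (1.50 ± 0.18, adjusted p = 0.00128 in Fgf23cKO, 1.73 ± 0.18, adjusted p = 3.16e-04 in Dmp1KO/Fgf23cKO). In macrophage-like cells 8 rose and 6 fell of 14 tested in Dmp1KO, against 59.3% of all genes called either way, with Vim at 2.10 ± 0.12 (adjusted p = 3.47e-11), Ahnak2 at 1.08 ± 0.09 (adjusted p = 9.06e-09) and the formyl peptide receptor Fpr1, a receptor of Anxa1, at -2.35 ± 0.29 (adjusted p = 1.49e-06).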

How the data were processed

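Per the labels and the study's methods, the authors sequenced CellPlex-tagged 10x 3′ libraries and processed them with Cell Ranger 7.0.1 against mm10, and deposited per-sample matrices of UMI counts. The submitters' processing notes also name Seurat, which the study used for its own clustering, not analysed here. The deposited counts were used as they stand, with groups taken from the labels.

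Cells of 15 samples were normalised with SCTransform 0.4.2 and clustered in Seurat 5.3.0 without the 10 genes or their families. A cluster took the name of the list with most markers among its 10 leading genes, if no other list tied and 3 markers were detected (in 25% of cells), the macrophage and monocyte lists counting as 1 class; with no marker leading, it was called macrophage-like if 8 of 10 macrophage markers were detected above the other cells. Cluster 1 is thus macrophage-like by 1 leading monocyte marker. These naming steps were set after seeing the data. No doublet caller was run. The authors had removed multiplets by their tags, which mark cultures, so doublets of cells from the same culture can remain. Sums of counts over the cells of a class in a tagged culture, where it had 10 or more, were tested with edgeR 4.0.16 in R 4.3.3 (TMM factors, filterByExpr, quasi-likelihood test, Benjamini-Hochberg adjustment over all genes tested, threshold 0.1), after the code was tested on simulated data. The fit of a class shared 1 estimate of spread over genotypes, and all 10 genes passed its filter in every class compared. DESeq2 1.42.0, RLE factors, library totals, no filter, stricter cells, untagged samples, clustering with the 10 genes, and leaving out each culture were alternatives. Correlations used cells thinned to 1300 UMIs.

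The 10 genes, the related lists and the tests were chosen with earlier results of these data known. All 10 genes were named, and of other genes those with the smallest adjusted p per list (3 for each class and comparison), or the 5 most correlated genes per class. Libraries, depth and genotype cannot be separated, because each genotype was 1 droplet reaction.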

Additional observations from a re-analysis of the deposited data

Results flagged for a closer look

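The change from the genotype without Cre to that with Cre differed between the Dmp1KO and WT backgrounds for 17 combinations of gene and class. This was a test of the difference itself (edgeR interaction term, log2 scale, estimate ± SE). An effect of Fgf23 deletion cannot be told apart in it from one of Cre or of the droplet reactions. Each value is the change from Dmp1KO to Dmp1KO/Fgf23cKO minus that from WT to Fgf23cKO, and all 17 were negative. They are 2 of 10 genes in contractile, 6 of 10 in fibroblastic and 9 of 10 in macrophage-like cells, where the same contrast called 2.69%, 6.2% and 47.9% of all genes.

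In contractile osteoprogenitor-like cells the genes were S100a10 (-1.74 ± 0.41, adjusted p = 0.0794) and Lgals3 (-3.90 ± 0.48, adjusted p = 0.00568). In fibroblastic pre-osteoblast-like cells they were S100a10 (-1.30 ± 0.24, adjusted p = 0.0182), Anxa1 (-1.18 ± 0.16, adjusted p = 0.00974), Anxa2 (-0.95 ± 0.18, adjusted p = 0.0182), Anxa5 (-0.69 ± 0.19, adjusted p = 0.072), Lgals1 (-0.85 ± 0.19, adjusted p = 0.0345) and Lgals3 (-2.78 ± 0.38, adjusted p = 0.00974). In macrophage-like cells they were S100a4 (-2.84 ± 0.27, adjusted p = 9.39e-08), S100a6 (-2.85 ± 0.24, adjusted p = 2.40e-08), S100a10 (-1.15 ± 0.13, adjusted p = 7.39e-07), S100a11 (-1.77 ± 0.14, adjusted p = 1.02e-08), Anxa1 (-1.93 ± 0.12, adjusted p = 6.96e-10), Anxa2 (-1.36 ± 0.12, adjusted p = 6.62e-08), Lgals1 (-0.50 ± 0.10, adjusted p = 3.22e-04), Lgals3 (-2.02 ± 0.19, adjusted p = 6.77e-08) and Ahnak (-0.25 ± 0.09, adjusted p = 0.0324). The Ahnak call was lost with library totals (-0.15, adjusted p = 0.212) and the fibroblastic Anxa5 call in cells low in macrophage UMIs (-0.66, adjusted p = 0.108). Dmp1KO sums held macrophage markers at 4725 to 10863 CPM in contractile and 2218 to 3024 CPM in fibroblastic cells. The part of such RNA in the stromal Lgals3 values was not tested.

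The contrast includes all 4 droplet reactions, and its Dmp1KO arm holds 2 cultures. No test for a culture that stands apart was run in groups of 2 or 3. The values of Fgf23cKO replicate 3 lay away from those of its group: Lgals3 in macrophage-like cells was at 2898 CPM against 1712 and 1913, the 3 clusters kept out of that class took 20.4% of its cells against 7.45% and 12.4%, and Dmp1 had 152 UMIs against 934 and 1177. Without it the contrast called 1, 5 and 9 genes in contractile, fibroblastic and macrophage-like cells.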

How the results depend on the processing

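No fold change of the 10 genes that was called in the main fit reversed in sign under any alternative. Values not called there were not followed in this way, and some of them did reverse. In contractile cells low in macrophage UMIs, S100a11 went from positive to -0.17 in Fgf23cKO and -0.02 in Dmp1KO/Fgf23cKO against WT. Ahnak likewise went to -0.11 in Fgf23cKO. Other than leaving out cultures, 134 counts of called genes stayed within 1.5 times the main count and 10 did not, and 748 of the members' fold changes kept their call while 35 lost it.

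In contractile cells the interaction called 2 genes, against 1 with RLE factors, 7 with no filter on low counts, 1 with the replicate block and 4 with untagged samples as replicates; Dmp1KO/Fgf23cKO vs Dmp1KO called 1 with the block, and Dmp1KO vs WT 4 with library totals. In fibroblastic cells Dmp1KO/Fgf23cKO vs WT called 5 with no filter, and Dmp1KO/Fgf23cKO vs Dmp1KO called 1 with no filter, 2 with DESeq2 and 3 with untagged samples. The median correlation of pairs in macrophage-like cells was 0.0868 at 1300 UMIs and 0.128 at 3000 UMIs. The cause was not tested.

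Leaving out 1 culture at a time gave, for Dmp1KO, Fgf23cKO and Dmp1KO/Fgf23cKO against WT, Dmp1KO/Fgf23cKO vs Dmp1KO and the interaction, 1 to 8, 6 to 9, 4 to 9, 0 to 2 and 1 to 4 genes in contractile cells, 1 to 5, 5 to 7, 2 to 4, 0 to 1 and 2 to 6 in fibroblastic cells, and 8 to 8, 5 to 7, 5 to 7, 9 to 9 and 8 to 9 in macrophage-like cells. In osteoblast/osteocyte-like cells Dmp1KO/Fgf23cKO vs WT gave 3 to 4. A lone Dmp1KO culture was then assumed to vary like the other groups.

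Replicate numbers do not pair the cultures, since same-numbered cultures deviated from their group means with correlations of -0.42 to 0.37 in contractile, -0.19 to 0.12 in fibroblastic, -0.16 to 0.07 in osteoblast/osteocyte-like and -0.38 to 0.31 in macrophage-like cells; the block is therefore given only here.

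Counts over all genes that moved by over 1.5 times were, in contractile cells, 583 against 258 (DESeq2) and 263 (the replicate block) for Dmp1KO vs WT, 1066 against 414 (DESeq2) and 585 (cells low in macrophage UMIs) for Fgf23cKO vs WT, 1152 against 2035 (library totals) and 562 (DESeq2) for Dmp1KO/Fgf23cKO vs WT, 65 against 243 (no filter), 20 (the replicate block), 343 (untagged samples), 123 (the 10 genes kept in clustering) and 207 (cells low in macrophage UMIs) for Dmp1KO/Fgf23cKO vs Dmp1KO and 140 against 56 (RLE factors), 60 (library totals), 371 (no filter), 56 (DESeq2), 3 (the replicate block) and 477 (untagged samples) for the interaction. In fibroblastic cells they were 1377 against 2297 (untagged samples) for Dmp1KO vs WT, 1392 against 909 (DESeq2) and 2302 (untagged samples) for Fgf23cKO vs WT, 113 against 944 (no filter), 231 (DESeq2), 44 (the replicate block) and 827 (untagged samples) for Dmp1KO/Fgf23cKO vs Dmp1KO and 722 against 1429 (no filter), 397 (the replicate block) and 1844 (untagged samples) for the interaction. In osteoblast/osteocyte-like cells Dmp1KO/Fgf23cKO vs WT called 1314 against 634 (DESeq2), and in macrophage-like cells Dmp1KO/Fgf23cKO vs Dmp1KO called 5611 against 8906 (all 8 clusters).

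Library totals, the limit on macrophage UMIs, the sum of all 8 clusters and the minimum of 20 thinned cells were chosen after seeing the data. Contractile sums held 98169 to 509640 UMIs, which limits what those tests can detect.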
